A study of Mus musculus with 47 samples.

Results

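The step examined is the passage from mouse embryonic stem cells (ESC) to neural progenitor cultures (NPC) in a line whose SUZ12 protein carries an auxin-inducible degron (SUZ12-AID). The degron lets auxin, the plant hormone indole-3-acetic acid, trigger destruction of the tagged protein through the plant F-box protein Tir1, which every line here expresses. The libraries were chosen by their labels for line, stage and treatment, and no measured value entered that choice. They number 11 of the 47 in the series. The groups were SUZ12-AID NPC with auxin (2 libraries), SUZ12-AID ESC with auxin (3), SUZ12-AID NPC without auxin (3) and SUZ12-AID ESC without auxin (3). All lines have a C57BL/6 background. A line that expresses Tir1 but carries no degron, in the same 4 conditions with 3 libraries each, gives the response to auxin alone.

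ESC grew with 100 U/ml LIF, 3 µM of the GSK3 inhibitor CHIR99021 and 1 µM of the MEK inhibitor PD0325901, a medium that holds mouse cells in the naive pluripotent state. For NPC, 10 ng/ml of the growth factor bFGF was given for 72 hours and then 500 nM of SAG, which switches on Hedgehog signalling, for 48 hours. Auxin was used at 50 µM, for 5 days in NPC and for 12 hours in ESC. The length of depletion and the stage therefore cannot be told apart, and ESC with auxin stand for cells shortly after loss of the protein. SUZ12 protein was not measured in the data used here, nor do the labels say whether the line is a single clone.

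SUZ12 is a core subunit of Polycomb repressive complex 2 (PRC2), which methylates a lysine of histone H3 and is tied to the silencing of developmental regulators in cells that do not use them. Mouse stem cells without PRC2 are known to renew themselves, while their differentiation is known to be faulty. In the ventral neural tube, which SAG imitates, Hedgehog signalling sets up progenitor domains from which motor neurons and interneurons arise.

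Expression is given as deposited TPM, a share of the library's transcripts that is scaled for transcript length. Recovered depth was 5.63 and 6.3 M reads in SUZ12-AID NPC with auxin (M, 1000000), 5.39 to 6.5 M in ESC with auxin, 6.59 to 7.7 M in untreated NPC and 7.3 to 8.71 M in untreated ESC. Across the series it was 3.24 to 8.71 M. Suz12 RNA stood at 167 and 159.6 TPM in NPC with auxin and at 323, 314 and 301 TPM in ESC with auxin, against 76.5, 79.5 and 77.5 TPM in untreated NPC and 299, 251 and 304 TPM in untreated ESC. The degron acts on the protein, so the transcript does not check the depletion. It was called lower in NPC in both steps, with log2 differences of -0.93 ± 0.11 with auxin and -1.86 ± 0.10 without. In bulk RNA, fewer cells of a type and less RNA per cell cannot be told apart, and this holds for every result given here.

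Most tested genes were still called between ESC and NPC with auxin, at any size of change. Of 17760 genes tested, 11027 (62.1%) were called between NPC and ESC with auxin, 7189 (40.5%) higher in NPC and 3838 (21.6%) lower, by limma at a Benjamini-Hochberg adjusted p under 0.05. Without auxin the same step called 13633 genes (76.8%), 8909 (50.2%) higher and 4724 (26.6%) lower. The p-values measure the spread between libraries that the study design calls biological replicates. In read counts, that spread was 1.32 times counting error between the NPC libraries with auxin (chi-square per gene, 13819 genes). It was 1.207 to 2.028 times between library pairs of the other SUZ12-AID groups, so the p-values may hold little variation between cultures. Relative to library scaling by median-of-ratios factors, TPM shifted the median gene: the medians of the log2 differences were 0.187 with auxin and 0.361 without, against 0.0134 and 0 under that scaling. The split of calls with auxin was then 5857 higher and 5248 lower, and without auxin 6857 and 6678.

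The difference between the steps was tested as the auxin step minus the untreated step. It was called for 8729 genes (49.1%), of which 3274 (18.4%) had a higher value with auxin and 5455 (30.7%) a lower value. Under voom these were 4647 and 4310. Under median-of-ratios scaling they were 4503 and 3839, and the median difference over all genes was 0.0238 in place of -0.153, so the balance between directions depended on the scaling. In the line without a degron the same difference was called for 1 gene (0.00563%), Id3, a BMP-responsive inhibitor of basic helix-loop-helix factors, which is named because it is the single call. Its difference was 0.63 ± 0.08 in the untagged line (adjusted p = 9.56e-05, limma) and 0.55 ± 0.09 in SUZ12-AID. At an unadjusted p under 0.05, 1331 genes passed in the untagged line, and voom on recovered reads called 2 higher and 2 lower there. After subtraction of the untagged difference, 2296 genes (12.9%) remained called higher and 3458 (19.5%) lower, 32.4% together; under median-of-ratios scaling these were 3078 and 2569. Of the 8729 genes called before, 8701 kept their sign in that subtraction and 5594 were also called in it. Both counts reuse the same SUZ12-AID values, so they add no separate support.

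**Figure D1:**
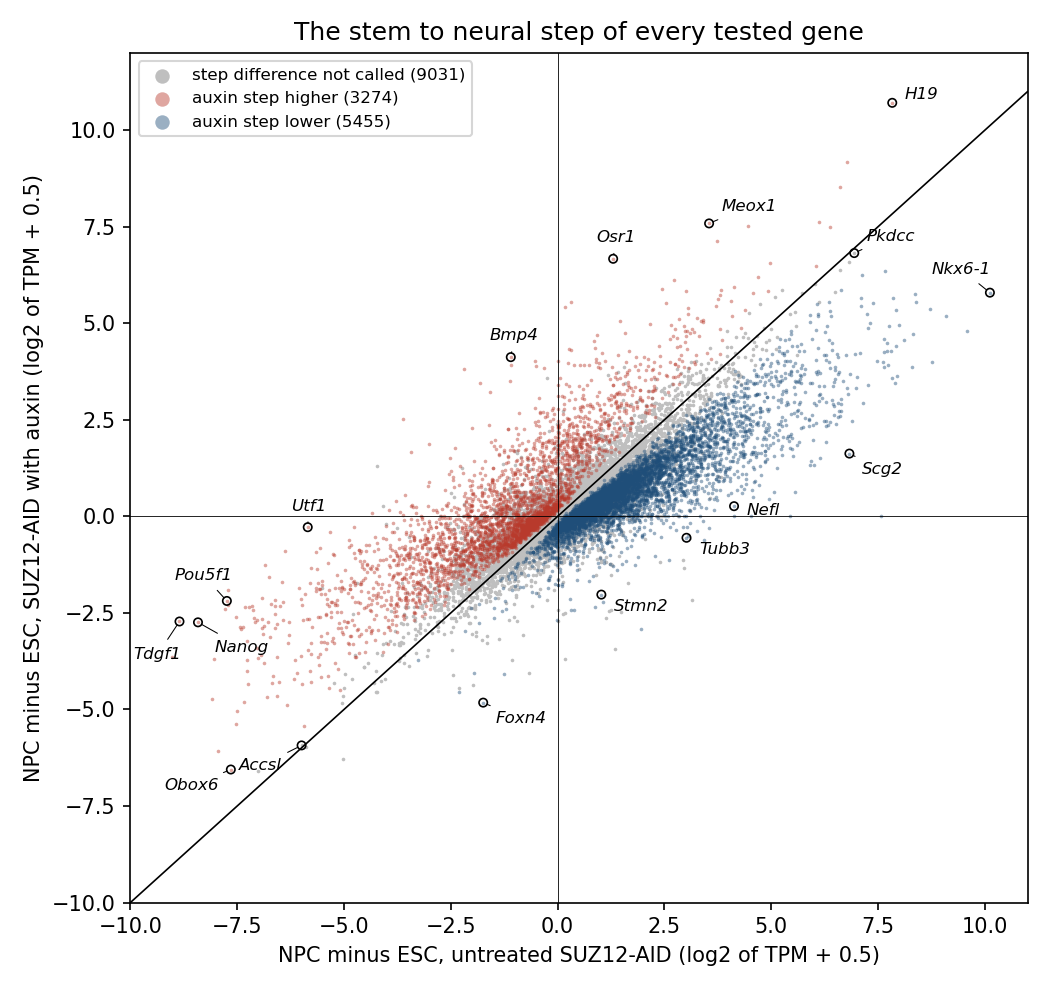
Each point is a tested gene, with the NPC minus ESC difference in log2(TPM + 0.5) in auxin-treated SUZ12-AID cells on the vertical axis and in untreated SUZ12-AID cells on the horizontal axis. Red marks the 3274 genes with a higher and blue the 5455 genes with a lower auxin step, grey the 9031 others. Points on the diagonal changed alike; Pou5f1 and Nanog lie far above it and Nkx6-1 and Scg2 far below it.

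Most of the switches had the same direction in both steps but a smaller size with auxin. The 2 steps share no library, and across genes they had a Pearson r of 0.796 and a Spearman rho of 0.789 (17760 genes, which are not independent replicates), with the same sign for 14619 genes, 82.3%. A gene is said to switch on or off when it was called and changed at least 2-fold. With auxin, 3725 genes (21.0% of those tested) switched on and 1499 (8.44%) switched off. Without auxin 5476 (30.8%) switched on and 2578 (14.5%) off. The genes that switched on in both numbered 3028, which is 81.3% of those on with auxin and 55.3% of those on without it. The genes that switched off in both numbered 1277, which is 85.2% of those off with auxin and 49.5% of those off without it.

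Of the genes that switched on without auxin, 3516 (64.2%) had a lower step with auxin. Their median log2 difference was 0.939 with auxin and 2.08 without, and 1866 of them no longer met the criterion for on. Only 249 of the genes switched on without auxin had a higher step with it. Of the genes that switched off without auxin, 1552 (60.2%) fell less with auxin, with a median of -0.814 with auxin and -2.27 without. Among these 924 no longer met the criterion for off, and 46 of the 924 switched on instead. In all, 498 genes met the criterion for on with auxin alone and had a higher step there, these 46 included. In all, 90 met that for off with auxin alone and had a lower step there, including 8 that switched on without auxin. The difference between steps was not called for 1129 genes on in both and 625 off in both; a missed threshold does not show that their steps were alike.

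For a few of the strongest switches no difference between the steps was called. Pkdcc, which encodes a secreted kinase of matrix proteins, stood at 117 and 123 TPM in NPC with auxin and 0.345, 1.28 and 0.312 TPM in ESC with auxin, against 105, 119 and 112 TPM in untreated NPC and 0.619, 0.11 and 0.614 TPM in untreated ESC. Both NPC groups overlapped and lay far above both ESC groups. The auxin step was 6.82 ± 0.35 and the untreated step 6.94 ± 0.31, and their difference of -0.12 had a 95% interval of -1.08 to 0.83. Accsl went the other way, with 0.118 and 0.104 TPM in NPC with auxin and 35.7, 38.3 and 36.2 TPM in ESC with auxin, against 0, 0.221 and 0.199 TPM in untreated NPC and 39.8, 39.4 and 39.9 TPM in untreated ESC. The NPC libraries of Accsl rest on 2 and 4 reads in all. Its steps were -5.93 ± 0.17 and -5.99 ± 0.15, with an interval of -0.39 to 0.51 for the difference. The growth-restraining imprinted genes Cdkn1c and Grb10 were further examples, chosen after their values were seen: Cdkn1c averaged 508 ± 7.48 TPM in NPC (SD, n = 2) and 7.48 ± 1.37 TPM in ESC (n = 3) with auxin, against 448 ± 16.4 and 6.4 ± 0.354 TPM without (n = 3 each). The differences between steps were -0.02 ± 0.20 for Cdkn1c and -0.04 ± 0.10 for Grb10, neither called. For Obox6, a homeobox gene of early embryos, the difference was called, at 1.09 ± 0.26 (adjusted p = 0.000715), though both falls were among the largest. It fell to 0.624 and 0.274 TPM in NPC with auxin, against 87.4, 83.8 and 90.2 TPM in ESC with auxin. The NPC values with auxin rest on 3 reads in all, so the called difference sets 3 reads against none. Beyond the untagged line it was 1.11 and called by limma, but not by voom on recovered reads (2.00, adjusted p = 0.0694). In untreated NPC it had no read in 3 libraries, which puts untreated ESC at least 371-fold higher when 3 reads over the group are taken as the limit.

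Pluripotency genes kept part of their stem cell level in NPC with auxin. All 20 naive pluripotency genes were called lower in NPC than in ESC in both steps, but the fall was shallower with auxin for 18 of them. The median log2 difference of the list was -2.83 with auxin and -6.63 without. Of the mean ESC level, a median of 13.8% was left in NPC with auxin and 0.579% in untreated NPC. The general pluripotency list of 15 genes had 11 called lower and 2 higher with auxin, 12 lower and 2 higher without, and a higher step with auxin for 13. Summed over the naive list, NPC had 1339.9 and 1369 TPM and ESC 8652 to 8781 TPM with auxin, against 70 to 80.1 TPM in NPC and 9006 to 9211 TPM in ESC without, and every naive gene had reads in NPC with auxin. For the general list the median level left in NPC was 46.2% with auxin and 1.98% without. Among all genes 18.4% had a higher step with auxin.

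Pou5f1 encodes OCT4, the POU factor without which pluripotency collapses, and lies on chromosome 17 at 35506018 to 35510772 (GRCm38, which is mm10). It stood at 344 and 339 TPM in NPC with auxin and 1518, 1599 and 1559 TPM in ESC with auxin, against 8.21, 8.63 and 6.81 TPM in untreated NPC and 1766, 1806 and 1783 TPM in untreated ESC. No NPC library with auxin overlapped any other group: they lay below every ESC library and far above every untreated NPC library. The step was -2.19 ± 0.08 with auxin and -7.74 ± 0.08 without, a difference of 5.55 ± 0.11 (adjusted p = 3.2e-30, limma). In the untagged line, NPC with auxin had 9.12, 10.5 and 9.26 TPM, against 12.8, 10.4 and 10.6 TPM in untreated NPC. The level kept in NPC was 21.9% of ESC with auxin and 0.442% without.

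Nanog, a homeobox gene of the naive network, had 116 and 115 TPM in NPC with auxin and 778, 762 and 789 TPM in ESC with auxin, against 1.1, 2.78 and 1.25 TPM in untreated NPC and 715, 697 and 736 TPM in untreated ESC. The difference between steps was 5.67 ± 0.23 (adjusted p = 9.18e-21). Klf2, a Krüppel-like factor of the same network, had 178 and 166 TPM in NPC with auxin and 839.7, 871 and 805 TPM in ESC with auxin, against 2.42, 3.86 and 4.06 TPM in untreated NPC and 821, 818 and 804 TPM in untreated ESC. For both genes the ESC groups differed little and the NPC groups were far apart. Esrrb, an orphan nuclear receptor, kept 16% of its ESC level with auxin and 0.585% without, and Zfp42, the classical stem cell marker REX1, kept 24.4% and 1.12%. The amounts kept with auxin ranged over the naive list from 4.91% for Klf4 to 33.2% for Dppa3.

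Tbx3 and Gbx2 departed from the other naive genes. Tbx3, a T-box factor, had 18.4 and 17.3 TPM in NPC with auxin and 131, 125 and 119.9 TPM in ESC with auxin, against 15.2, 15.4 and 14.5 TPM in untreated NPC and 129, 127 and 125 TPM in untreated ESC. Its difference between steps was 0.26 ± 0.14 and was not called (adjusted p = 0.122). Gbx2, a homeobox gene that also marks the hindbrain border, fell slightly more with auxin, by a difference of -0.46 ± 0.18 (adjusted p = 0.0349), which was not called beyond the untagged line. Without auxin these genes kept 11.9% (Tbx3) and 9.93% (Gbx2) of their ESC level, more than the list median.

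**Figure D2:**
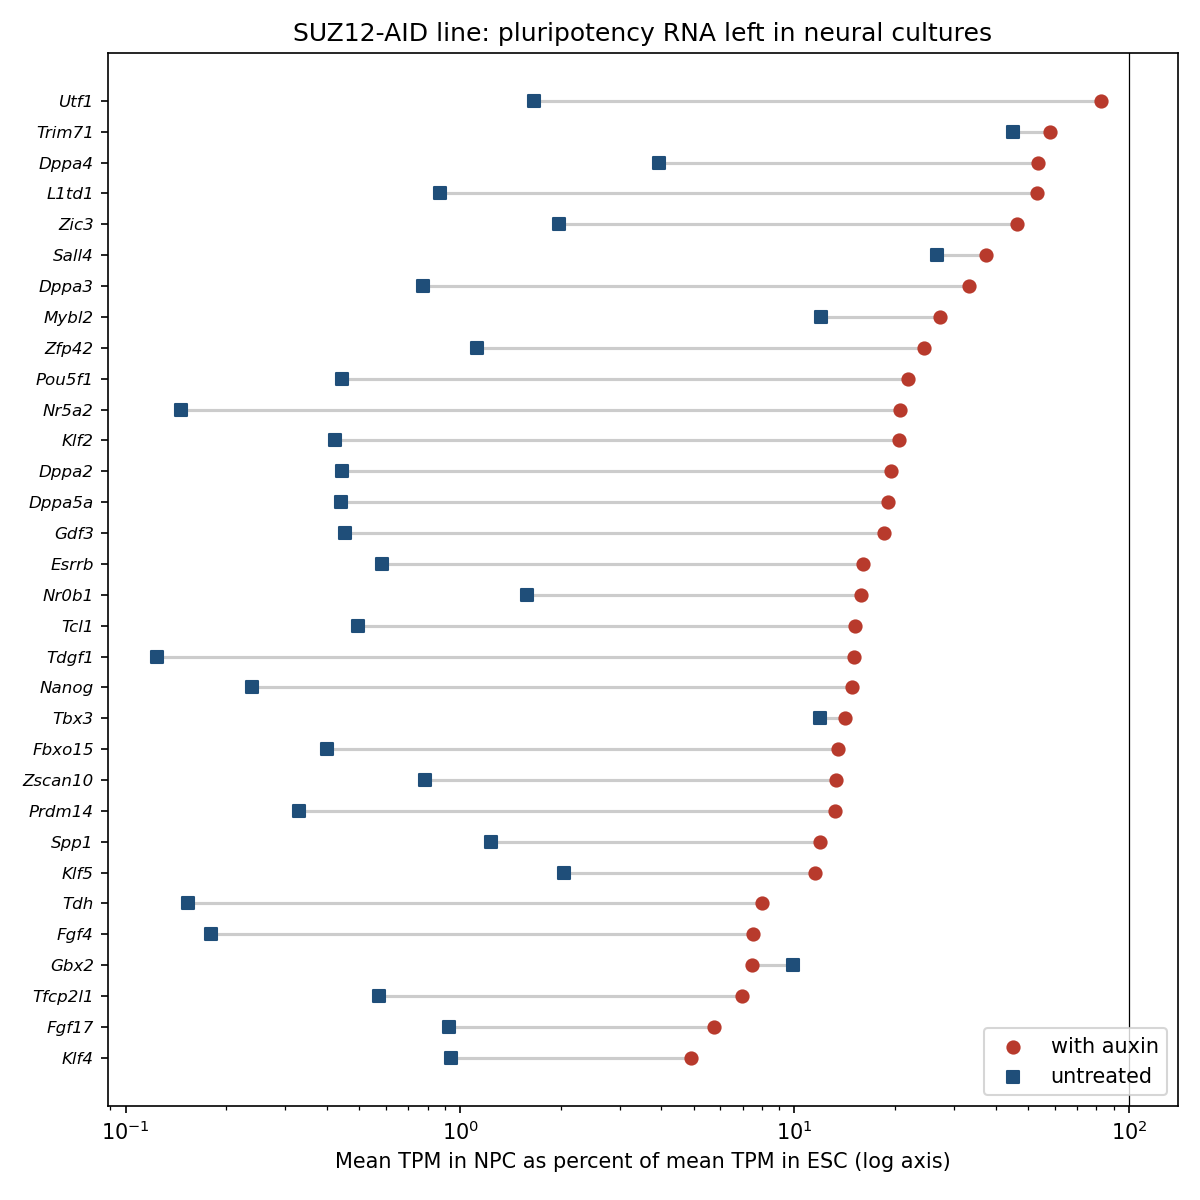
Each row is a naive or general pluripotency gene with a lower level in untreated NPC than in untreated ESC (32 genes), and the horizontal axis, logarithmic, gives the mean NPC level as a percent of the mean ESC level with auxin and without. The auxin points lie right of the untreated points for nearly every gene, with list medians of 13.8% (naive) and 46.2% (general) with auxin and 0.579% and 1.98% without.

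The general pluripotency genes with the largest differences were Tdgf1, Utf1, Pou5f1 and L1td1. Tdgf1 encodes CRIPTO, a co-receptor for NODAL, and had the largest positive difference of any named gene, 6.13 ± 0.31 (adjusted p = 6.14e-18). It stood at 59.3 and 58.2 TPM in NPC with auxin and 388, 384 and 399 TPM in ESC with auxin, against 0.324, 0.186 and 1.18 TPM in untreated NPC and 458, 427 and 476 TPM in untreated ESC. Utf1, a chromatin-associated factor of stem cells, had 267 and 260.5 TPM in NPC with auxin and 322, 333 and 306 TPM in ESC with auxin, against 8.75, 6.37 and 9.38 TPM in untreated NPC and 489.8, 499 and 489.6 TPM in untreated ESC. The step of Utf1 with auxin was -0.28 ± 0.18 and not called (adjusted p = 0.175), but it was called under median-of-ratios scaling (-0.48, adjusted p = 0.019), with the compared groups only (adjusted p = 0.00271) and by voom on recovered reads (adjusted p = 3.74e-06). Within ESC, Utf1 was lower with auxin than without, by -0.62 ± 0.16 (adjusted p = 0.0126). In the untagged line, ESC had 226, 238 and 240.5 TPM of Utf1 with auxin, against 388, 378 and 377 TPM without. Beyond the untagged line its difference between steps was 4.56 ± 0.33. L1td1, derived from a transposon, kept 53.2% of its ESC level with auxin and 0.869% without. Lin28a, an RNA-binding repressor of let-7 microRNAs, rose in NPC in both steps, to 153 and 149.9 TPM with auxin, against 37.2, 41.8 and 37.5 TPM in ESC.

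The formative epiblast list, which marks the state between naive cells and commitment, mostly had higher steps with auxin and no common direction without. Of its 10 genes, 6 were higher and 3 lower in NPC with auxin, 4 and 4 without. The difference was called higher for 7 and lower for 2, against 18.4% and 30.7% of all genes. The median difference was 1.55 for the list and -0.153 for all genes. Fgf5 and Otx2, which define that state, stayed at the bottom of the scale: Fgf5 had 2.83 and 2.05 TPM in NPC with auxin and 0.169 to 0.306 TPM in ESC with auxin, against 0 to 0.405 TPM in untreated NPC and 0 to 0.216 TPM in untreated ESC. Otx2 had 1.38 and 1.28 TPM in NPC with auxin and no more than 0.316 TPM in any library of the other groups. Dnmt3b, a de novo DNA methyltransferase, had 34.8 and 37.1 TPM in NPC with auxin and 41.7, 45.8 and 41.8 TPM in ESC with auxin, against 11.7, 13.7 and 11.6 TPM in untreated NPC and 47.9, 42.1 and 44.7 TPM in untreated ESC. Its step with auxin, -0.26 ± 0.09, was not called without the first NPC library with auxin or the second ESC library with auxin (-0.21 in each), and the step without auxin was -1.82 ± 0.08. Its cofactor Dnmt3l rose in NPC with auxin and fell without, as described with the germ line genes.

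**Figure D3:**
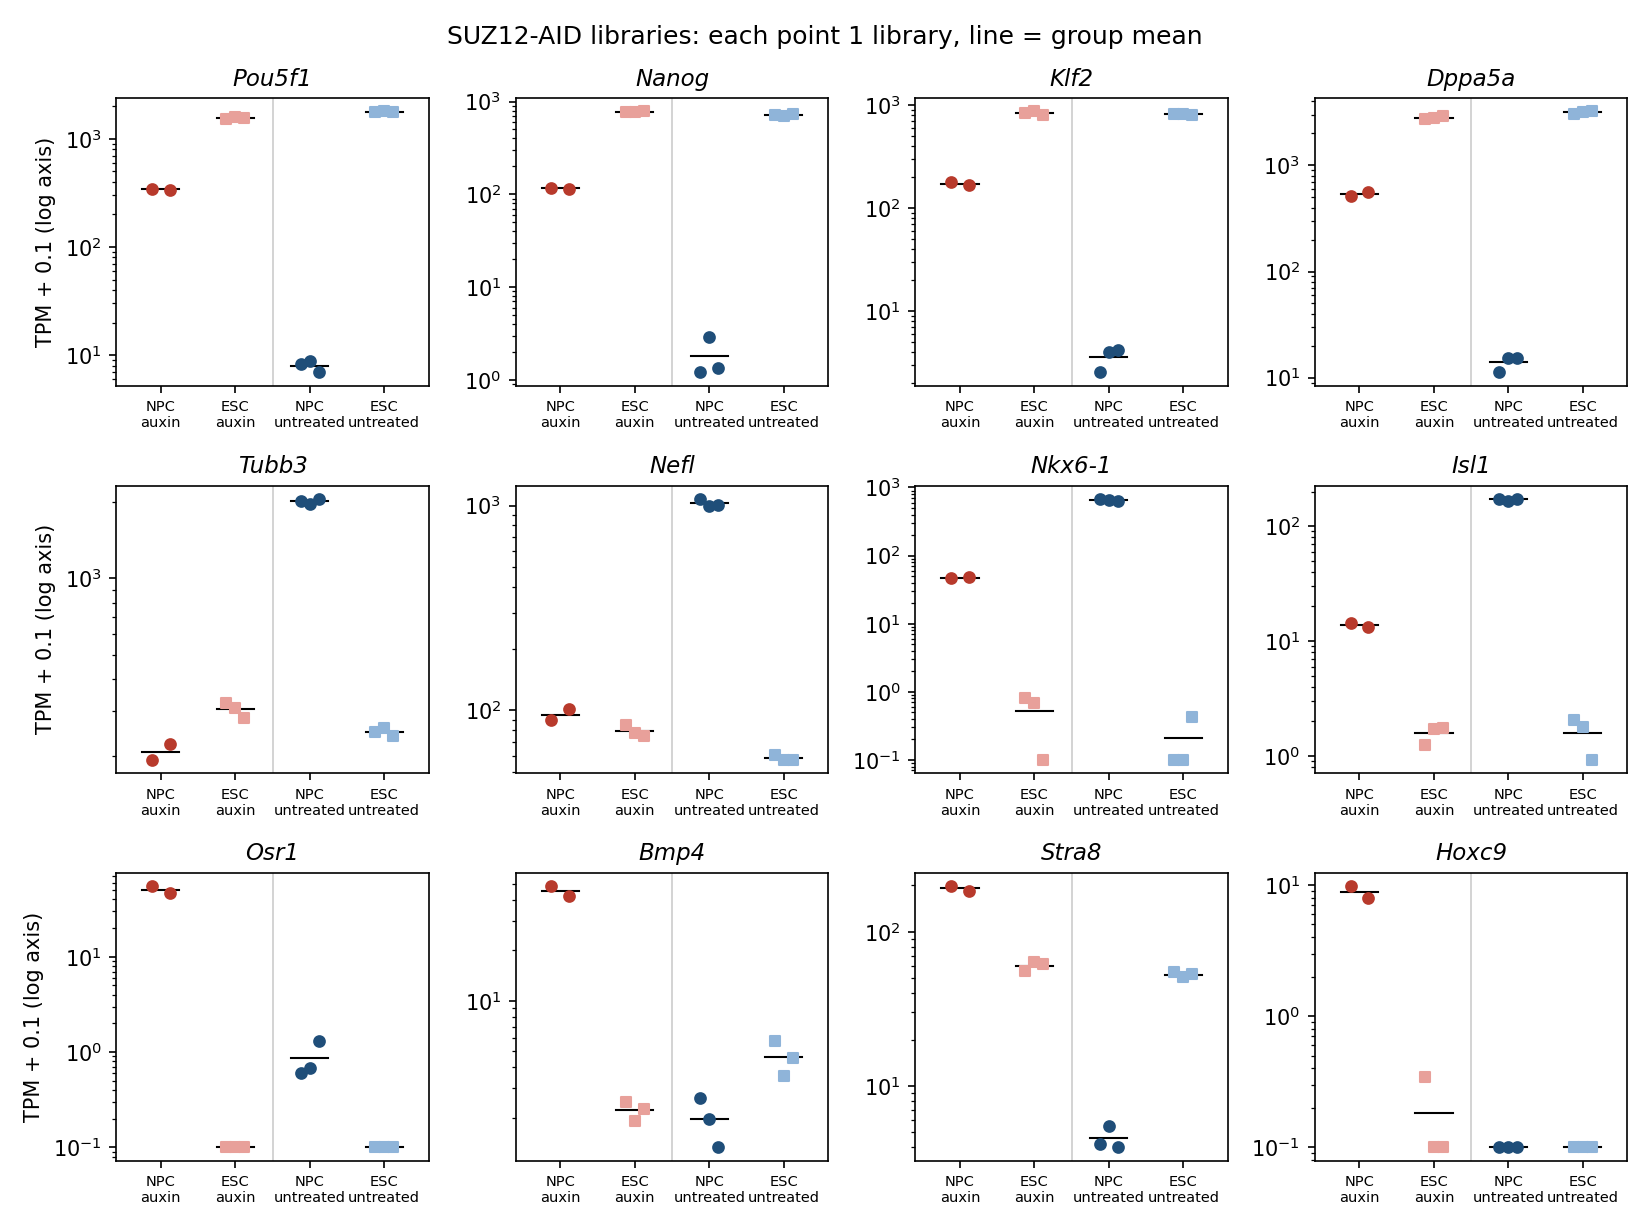
TPM + 0.1 on a logarithmic axis for 12 genes in the 11 SUZ12-AID libraries; points are libraries and lines group means, with NPC left of ESC and auxin-treated left of untreated cells. Pou5f1, Nanog, Klf2 and Dppa5a lie far above untreated NPC in NPC with auxin, Tubb3, Nefl, Nkx6-1 and Isl1 lie far below untreated NPC there, and Osr1, Bmp4, Stra8 and Hoxc9 are highest there; Dppa5a has near-identical copies, so its values are uncertain.

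Neural progenitor genes were switched on with auxin, but to a lower level. Of 30 listed genes 29 were tested, and 27 were called higher in NPC with auxin as well as without. The median log2 difference was 2.74 with auxin and 5.25 without, and 28 of the 29 had a lower step with auxin (30.7% of all genes did). The mean level in NPC with auxin was a median of 27.2% of that in untreated NPC, from 3.77% for Hes5 to 179% for Lhx2, whose difference was not called. Summed over the list, NPC had 2365 and 2383 TPM and ESC 965 to 999 TPM with auxin, against 6169 to 6270.4 TPM in NPC and 867 to 902 TPM in ESC without.

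Sox1, the earliest neural SOX factor, had 10.7 and 12 TPM in NPC with auxin and 1.15, 0.517 and 0.379 TPM in ESC with auxin, against 90.6, 94.1 and 82.5 TPM in untreated NPC and 0.439, 0.603 and 0.523 TPM in untreated ESC. Its NPC libraries with auxin lay between the ESC libraries and the untreated NPC libraries without overlap. The difference was -3.08 ± 0.30 (adjusted p = 7.01e-11). Pax6, a master regulator of neural progenitors and eye, came closer to its usual rise, with 10.5 and 9.99 TPM in NPC with auxin and 3.11, 2.56 and 3.3 TPM in ESC with auxin, against 20.2, 20.4 and 16.8 TPM in untreated NPC. Nes, the intermediate filament nestin, reached 77.9 and 81.6 TPM with auxin, against 383, 382 and 349 TPM in untreated NPC. Hes5, a Notch target, reached 5.84 and 5.31 TPM with auxin, against 151, 157 and 135 TPM without. Sox2, shared by stem cells and neural progenitors, fell to 197 and 203 TPM in NPC with auxin, against 422, 428 and 414 TPM in ESC with auxin, while untreated NPC held 362, 365 and 352 TPM and untreated ESC 418, 392 and 405 TPM. Its step was -1.08 ± 0.05 with auxin and -0.17 ± 0.05 without.

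The ventral and Hedgehog list holds genes of the signal and genes of the domains it sets up. Of 22 genes, 18 were higher and 4 lower in NPC with auxin, 17 and 4 without, and the difference was lower for 16 and higher for 2. Gli1, a direct readout of Hedgehog signalling, averaged 59.7 ± 4.81 TPM in NPC (SD, n = 2) and 6.85 ± 0.729 TPM in ESC with auxin (n = 3), against 75.7 ± 6.3 and 6.02 ± 0.593 TPM without (n = 3 each), a difference between steps of -0.51 ± 0.16. Ptch1, the Hedgehog receptor and another target, had 102 and 100.2 TPM in NPC with auxin, against 197, 199 and 195 TPM in untreated NPC. Foxa2, the floor plate factor that Hedgehog induces, reached 66.4 and 65.6 TPM in NPC with auxin and 165, 159 and 159 TPM in untreated NPC, and its difference of -1.31 ± 0.30 was not called beyond the untagged line (adjusted p = 0.0729). These readouts of the signal thus rose in both steps.

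The homeobox genes of the ventral progenitor domains reached far lower levels. Nkx6-1, which specifies motor neuron progenitors, had 47 and 48 TPM in NPC with auxin and 0.702, 0.577 and 0 TPM in ESC with auxin, against 687, 660.2 and 626 TPM in untreated NPC and 0, 0 and 0.334 TPM in untreated ESC. It therefore still switched on, to 7.22% of the untreated NPC level, with a difference of -4.32 ± 0.49 (adjusted p = 4.52e-09). Nkx6-2, its relative, barely rose, by 0.44 ± 0.11 with auxin, against 4.94 ± 0.09 without, and had 22.1 and 22.4 TPM in NPC with auxin and 404, 428 and 463 TPM in untreated NPC. Nkx2-2, a marker of the most ventral progenitors, had 5.97 and 7.02 TPM with auxin, against 84.8, 85.8 and 82.2 TPM in untreated NPC. Olig2, the basic helix-loop-helix factor of the motor neuron domain, was already present in ESC and fell in both steps, to 13.2 and 14.7 TPM in NPC with auxin, against 58.5, 57.1 and 53.1 TPM in ESC with auxin. Untreated NPC had 37.6, 34 and 35.9 TPM of Olig2, and untreated ESC 47.4, 54.3 and 52.8 TPM. The members with a higher step with auxin were Gli3, the transcription factor that acts mainly as a repressor of Hedgehog targets, and Cdon, a Hedgehog co-receptor. Gli3 stood at 23.7 and 24 TPM in NPC with auxin and 6.36, 7.72 and 5.97 TPM in untreated NPC.

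Neuronal genes reached small shares of their usual NPC level. Of the 20 proneural and Notch ligand genes 19 were tested, and 16 had a lower and none a higher step with auxin; the median of the list was 2.36 with auxin and 5.35 without. Neurog1, a proneural basic helix-loop-helix factor, had 6.98 and 7 TPM in NPC with auxin and 5.57, 8.74 and 6.87 TPM in ESC with auxin, so that its step was 0.01 ± 0.28, against 48.6, 51.4 and 44.3 TPM in untreated NPC. The Notch ligand Dll1 had 9.11 and 13.1 TPM with auxin, against 127, 124 and 123 TPM in untreated NPC, and Lfng, which modifies Notch, had 10.6 and 13 TPM with auxin and 192, 184 and 202 TPM without. Jag1, another Notch ligand, was lower in NPC than in ESC with auxin (-0.91 ± 0.12) and higher without (1.49 ± 0.10).

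The motor neuron genes rose in both steps and mostly by far less with auxin. Of 18 tested, 17 were called higher with auxin and all 18 without, and 15 had a lower step with auxin. Isl1, a LIM homeobox gene of motor neurons, had 14.3 and 13.2 TPM in NPC with auxin and 1.15, 1.62 and 1.64 TPM in ESC with auxin, against 174, 166 and 171 TPM in untreated NPC and 1.97, 1.68 and 0.821 TPM in untreated ESC. Its NPC libraries with auxin lay between the ESC libraries and the untreated NPC libraries without overlap, and the difference between steps was -3.61 ± 0.24 (adjusted p = 2.77e-15). Mnx1, which encodes the motor neuron factor HB9, departed from this, with 13.2 and 11.6 TPM in NPC with auxin and 5.81, 5.61 and 6.27 TPM in untreated NPC, and a difference of 0.32 ± 0.57 that was not called.

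Of the general neuron genes 30 were tested: 22 were higher and 7 lower in NPC with auxin, 27 and 3 without. The median of the list was 1.4 with auxin and 4.43 without, and 28 genes had a lower and 1 a higher step with auxin. Tubb3, the neuronal beta-tubulin on chromosome 8 at 123411424 to 123422015, had 192 and 222 TPM in NPC with auxin and 322, 309 and 280.5 TPM in ESC with auxin, against 2022, 1959 and 2058 TPM in untreated NPC and 248, 257 and 239.6 TPM in untreated ESC. It was thus lower in NPC than in ESC with auxin, by -0.55 ± 0.07, and higher without, by 3.02 ± 0.06 (adjusted p of the difference 3.73e-27). Stmn2, a microtubule regulator of growing axons, changed sign in the same way, with 42.9 and 43.4 TPM in NPC with auxin and 171, 174 and 187 TPM in ESC with auxin, against 388, 369 and 372 TPM in untreated NPC and 179.9, 190.4 and 184 TPM in untreated ESC. Nefl, the neurofilament light chain, had 89.4 and 101 TPM in NPC with auxin and 85.1, 77 and 74.7 TPM in ESC with auxin, against 1082, 996 and 1010.4 TPM in untreated NPC. Its step with auxin, 0.27 ± 0.07, was no longer called under median-of-ratios scaling (0.07) or without the second NPC library with auxin (0.18), and that without auxin was 4.13 ± 0.06. Summed over the list, NPC with auxin had 759.8 and 829 TPM and ESC with auxin 743 to 777 TPM, against 6462 to 6780.2 TPM in untreated NPC and 648 to 669 TPM in untreated ESC. The NPC sums with auxin thus lay next to the stem cell sums.

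**Figure D4:**
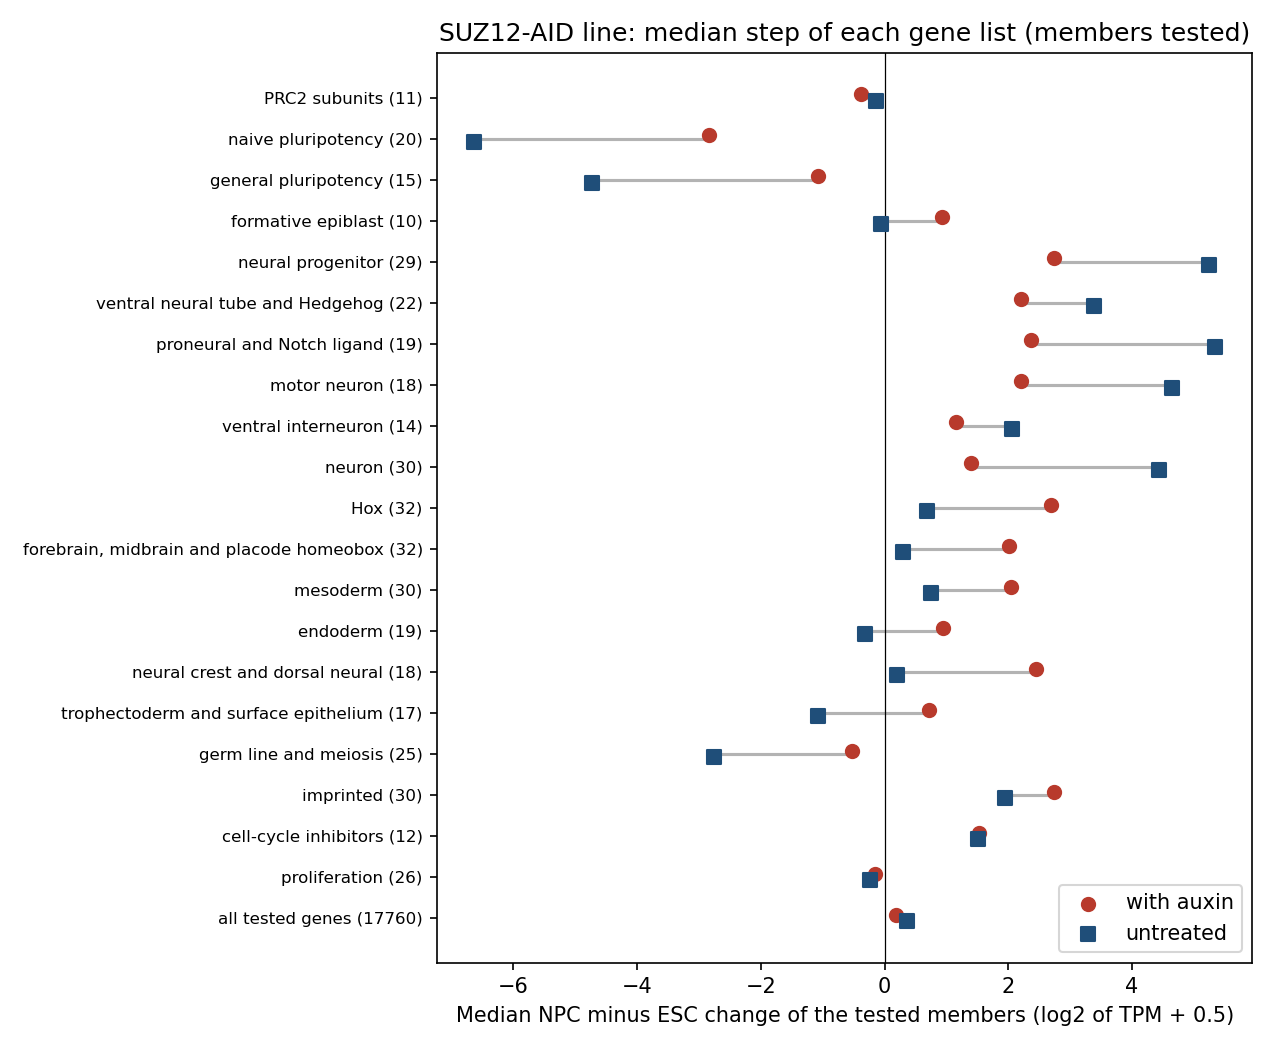
Median NPC minus ESC difference in log2(TPM + 0.5) over the tested members of 20 gene lists, with auxin and without, beside the median over all tested genes. The neural lists lie further to the right without auxin, and the pluripotency lists further to the left; the mesoderm, neural crest and Hox lists lie further to the right with auxin.

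At the negative end of the difference stood Scg2 and Lrrn1. Scg2, a granule protein of neuroendocrine cells, had 1.84 and 0.736 TPM in NPC with auxin, on 16 reads in all, against 65.1, 54 and 61.6 TPM in untreated NPC, and a difference of -5.20 ± 0.27. Lrrn1, a leucine-rich repeat membrane protein of neural tissue, had 11.4 and 15.1 TPM in NPC with auxin, against 277, 265 and 263 TPM in untreated NPC, and a difference of -4.77 ± 0.43. At the positive end stood Tdgf1 and Dnmt3l. The promoters of these 4 genes are shown because PRC2 is known to bind CpG-rich promoters; each runs from 250 bases before to 50 after the start of transcription, 5′ to 3′ on the gene's strand, from RefSeq on GRCm38.p6, with CG dinucleotides in capitals. Dnmt3l has 3 entries there, of which the nearest to the annotated start is shown.
Tdgf1: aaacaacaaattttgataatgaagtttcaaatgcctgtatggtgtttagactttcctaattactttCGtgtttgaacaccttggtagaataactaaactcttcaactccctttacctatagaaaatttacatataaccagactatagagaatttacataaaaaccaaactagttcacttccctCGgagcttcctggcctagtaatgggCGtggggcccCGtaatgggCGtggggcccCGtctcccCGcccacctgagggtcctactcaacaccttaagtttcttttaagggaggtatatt
Dnmt3l: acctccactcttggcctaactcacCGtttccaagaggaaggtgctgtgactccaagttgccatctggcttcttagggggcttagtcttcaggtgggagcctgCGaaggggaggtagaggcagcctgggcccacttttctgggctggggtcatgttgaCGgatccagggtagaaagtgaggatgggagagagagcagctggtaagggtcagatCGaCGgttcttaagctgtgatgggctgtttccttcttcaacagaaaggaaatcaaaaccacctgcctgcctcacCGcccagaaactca
Scg2: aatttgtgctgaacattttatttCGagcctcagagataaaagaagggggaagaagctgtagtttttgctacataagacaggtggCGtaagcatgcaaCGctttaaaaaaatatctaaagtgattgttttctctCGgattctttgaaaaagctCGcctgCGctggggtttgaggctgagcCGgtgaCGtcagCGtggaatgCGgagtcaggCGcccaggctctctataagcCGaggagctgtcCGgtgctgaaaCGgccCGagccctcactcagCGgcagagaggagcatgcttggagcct
Lrrn1: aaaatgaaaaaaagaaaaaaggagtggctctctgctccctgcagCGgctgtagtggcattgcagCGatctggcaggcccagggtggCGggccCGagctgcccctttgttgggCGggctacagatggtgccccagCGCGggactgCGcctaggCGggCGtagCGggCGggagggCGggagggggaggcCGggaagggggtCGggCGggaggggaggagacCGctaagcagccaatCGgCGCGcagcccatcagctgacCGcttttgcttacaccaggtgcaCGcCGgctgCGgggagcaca
The windows lie at chr9:110946109-110946408 on the minus strand for Tdgf1, chr10:78042037-78042336 on the plus strand for Dnmt3l, chr1:79439977-79440276 on the minus strand for Scg2 and chr6:107529476-107529775 on the plus strand for Lrrn1. They hold 7 CG in Tdgf1, 6 in Dnmt3l, 16 in Scg2 and 24 in Lrrn1, and the median over the 32851 windows of the table was 7. At least as many were held by 52.1% of windows for Tdgf1, 56.4% for Dnmt3l, 33% for Scg2 and 20% for Lrrn1. The motif TGACGTCA, which reads the same on both strands and is the full cyclic AMP response element, occurs in Scg2 and in 588 windows (1.79%). A comparison of CG content between the classes of genes was void, since only 70.6% of the tested genes have a window.

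Genes of other lineages were switched on in NPC with auxin. In the mesoderm list of 36 genes 30 were tested: 22 were higher and 2 lower in NPC with auxin, 16 and 8 without, and 21 had a higher and none a lower step with auxin. The median difference of the list was 1.64 and that of all genes -0.153. Summed over the list, NPC with auxin had 609 and 625 TPM and ESC with auxin 92.3 to 95.5 TPM, against 100.5 to 105 TPM in untreated NPC and 55.9 to 60.5 TPM in untreated ESC. In the untagged line NPC had 64.7 to 70.7 TPM with auxin and 67.4 to 77.3 TPM without.

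Osr1, a zinc finger gene of intermediate and lateral plate mesoderm, had 55.1 and 46.2 TPM in NPC with auxin, against 0.505, 0.581 and 1.22 TPM in untreated NPC. It had no read in any of the 6 ESC libraries, so that NPC with auxin were at least 265-fold above ESC with auxin and untreated NPC at least 5.62-fold above untreated ESC, with 3 reads over the group as the limit. Meox1, a homeobox gene of somites, had 125 and 124 TPM in NPC with auxin and 0, 0.315 and 0.173 TPM in ESC with auxin, against 7.36, 4.05 and 6.36 TPM in untreated NPC and 0.115, 0 and 0 TPM in untreated ESC. Osr1 and Meox1 were far higher in NPC with auxin than in any other group. The next gene, Bmp4, belongs to the neural crest and dorsal neural list and not to the mesoderm list. Bmp4, a growth factor that favours mesoderm and epidermis over neural fate, had 48.3 and 42.4 TPM in NPC with auxin and 2.4, 1.82 and 2.17 TPM in ESC with auxin, against 2.51, 1.87 and 1.23 TPM in untreated NPC and 5.65, 3.43 and 4.48 TPM in untreated ESC. It was higher in NPC with auxin by 4.12 ± 0.24 and lower without by -1.10 ± 0.22, a difference of 5.22 ± 0.33 (adjusted p = 7.78e-16). Twist1, a factor of mesenchyme, and Foxc1, a forkhead gene of paraxial mesoderm, rose in both steps, with differences of 1.05 ± 0.32 and 1.09 ± 0.39. Smooth muscle genes were on in NPC with and without auxin: Acta2 averaged 97 ± 8.52 TPM in NPC with auxin (SD, n = 2) and 46.9 ± 10.2 TPM in untreated NPC (n = 3), and its difference of 1.12 ± 0.22 was not called beyond the untagged line (adjusted p = 0.13).

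Neural crest and dorsal neural genes rose alongside. Of 18 tested, 14 were higher and 2 lower in NPC with auxin, 6 and 4 without, and 12 had a higher and 1 a lower step with auxin. The list summed to 219 and 241 TPM in NPC with auxin, against 62.3 to 69.7 TPM in untreated NPC. Zic1, a zinc finger gene of the dorsal neural tube, averaged 19.7 ± 0.934 TPM in NPC with auxin (SD, n = 2) and 0.945 ± 0.386 TPM in untreated NPC (n = 3); its difference was called, and beyond the untagged line it was 3.52 ± 0.40 and called by limma, but not by voom (1.41, adjusted p = 0.32). Wnt1, a signal of the dorsal midline, had 4.04 and 3.7 TPM in NPC with auxin, on 47 reads, and no read in any library of the other 3 groups; NPC with auxin were thus at least 25.5-fold above untreated NPC. Tfap2b, a neural crest factor, was read in the same group only, at 1.85 and 2.36 TPM. The forebrain, midbrain and placode homeobox list had 18 genes with a higher and 1 with a lower step among 32 tested. The endoderm list went less in a single direction, with 9 higher and 3 lower among 19 tested.

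In the trophectoderm and surface epithelium list 17 of 22 genes were tested: 10 were higher and 4 lower in NPC with auxin, 6 and 10 without, and 14 had a higher and none a lower step with auxin. Tfap2c, a factor of trophoblast and germ cells, was among the 4 and kept 50.8% of its ESC level with auxin and 8.61% without. Their sum was 1791 and 1902 TPM in NPC and 954 to 1011 TPM in ESC with auxin, against 384 to 398 TPM in NPC and 795 to 808 TPM in ESC without. Cldn6, a tight junction protein of embryonic epithelia, had 73.9 and 79 TPM in NPC with auxin and 7.78, 4.57 and 7.79 TPM in ESC with auxin, against 1.33, 0.767 and 1.15 TPM in untreated NPC and 5.66, 4.26 and 5.35 TPM in untreated ESC. Epcam, an epithelial adhesion molecule, rose to 75.6 and 81.8 TPM in NPC with auxin, against 48.2, 42.7 and 45.9 TPM in ESC with auxin, but fell to 3.94, 3.59 and 4.77 TPM in untreated NPC, against 37.1, 36.2 and 37.3 TPM in untreated ESC. Cdh1, the E-cadherin of stem cells and epithelia, fell in both steps, to 72.8 and 68.4 TPM with auxin and 8.17, 8.43 and 6.49 TPM without. The keratins Krt8 and Krt18 were on in both NPC groups and higher with auxin: Krt8 averaged 385 ± 9.54 TPM with auxin (SD, n = 2) and 91.5 ± 6.06 TPM without (n = 3).

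Hox genes were measured as 39 listed genes, 32 of them tested; 29 were higher and 1 lower in NPC with auxin, 16 and 7 without. They fall into groups by paralog number, which follows the order from head to tail in the embryo, a grouping chosen after the values were seen. The libraries were strand-specific, but how the counting used strand is not given in the sources used here, so reads of antisense transcripts in these clusters cannot be told apart. All 3 genes of group 1 were higher in NPC with auxin, and 2 of them also without. The step with auxin was higher for 2 of these 3 and lower for none. All 9 genes of the hindbrain groups 2 to 4 were higher in NPC in both steps, and 6 had a lower and none a higher step with auxin. Of the 20 tested genes of groups 5 to 13, 17 were higher and 1 lower with auxin, 5 and 7 without, and 16 had a higher and none a lower step with auxin. Hoxb4 had 29.4 and 27.1 TPM in NPC with auxin and 0.165, 0.542 and 0.447 TPM in ESC with auxin, against 53, 56.1 and 49.8 TPM in untreated NPC and 0.395, 0.316 and 0.47 TPM in untreated ESC. Its difference of -0.86 ± 0.21 was called, but not under voom (-0.69) nor beyond the untagged line (-0.65). Hoxb3 had 6.42 and 5.97 TPM in NPC with auxin, against 24.3, 21 and 20 TPM in untreated NPC, and no read in any ESC library. Hoxc9, a gene of the trunk, had 9.69 and 7.87 TPM in NPC with auxin, on 77 reads, while 1 read was found in ESC with auxin and none in the untreated groups; NPC with auxin were at least 42-fold above untreated NPC. Hoxb9 stood at 13.6 and 10.6 TPM in NPC with auxin and 1.88, 1.42 and 2.55 TPM in ESC with auxin, against no read in untreated NPC and 0.938, 0.901 and 1.23 TPM in untreated ESC. Its step was 2.38 ± 0.30 with auxin and -1.60 ± 0.27 without.

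Germ line genes mostly had higher steps with auxin. Of 27 listed genes 25 were tested: 5 were higher and 13 lower in NPC with auxin, 1 and 23 without, and 21 had a higher and none a lower step with auxin. Summed over the list NPC had 1763 and 1825 TPM and ESC 1664 to 1709 TPM with auxin, against 247 to 273 TPM in NPC and 1524 to 1601 TPM in ESC without. Dnmt3l, the cofactor of de novo DNA methylation in germ cells, had 127 and 128 TPM in NPC with auxin and 10.6, 7.55 and 7.88 TPM in ESC with auxin, against 1.52, 2.62 and 1.71 TPM in untreated NPC and 10.3, 10.1 and 11.2 TPM in untreated ESC. The step was 3.82 ± 0.29 with auxin and -2.20 ± 0.26 without, and the difference 6.01 ± 0.39 (adjusted p = 2.06e-15). Stra8, a retinoic acid target that licenses meiosis, had 198 and 185 TPM in NPC with auxin and 55.4, 63.8 and 61.5 TPM in ESC with auxin, against 4.13, 5.4 and 3.89 TPM in untreated NPC and 54.4, 50.7 and 52.9 TPM in untreated ESC. Both genes were highest in NPC with auxin and lowest in untreated NPC, with no overlap between NPC with auxin and any other group. Dazl and Ddx4, RNA-binding proteins of germ cells, fell in both steps: Dazl to 17.1 and 16.3 TPM with auxin, against 0.299, 0.458 and 0.31 TPM without.

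Imprinted genes, many of which act on fetal growth, rose in both steps. Of 30 tested, 28 were higher and none lower in NPC with auxin, 27 and 3 without, with 13 higher and 8 lower differences. Among all genes 40.5% were higher with auxin and 50.2% without, and differences were higher for 18.4% and lower for 30.7%. The share of lower differences in the list was thus near that of all genes. Beyond the untagged line 9 were called higher and 4 lower. H19, a noncoding RNA, had the largest rise with auxin of any named gene, with 2239.8 and 2197 TPM in NPC with auxin and 1.29, 0.608 and 0.669 TPM in ESC with auxin, against 331, 354 and 338 TPM in untreated NPC and 0.775, 0.946 and 1.32 TPM in untreated ESC. Its difference of 2.88 ± 0.46 was 2.70 beyond the untagged line (adjusted p = 0.00102), which was not called with a pseudocount of 0.1 (adjusted p = 0.0718). Its neighbour Igf2, a fetal growth factor, had 535 and 522 TPM in NPC with auxin, against 95.8, 93 and 98.9 TPM in untreated NPC. Nnat, expressed in neurons, went the other way, with 196 and 209.8 TPM in NPC with auxin, against 1345, 1278 and 1284 TPM in untreated NPC.

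Of 12 cell-cycle inhibitors, 10 were higher and 1 lower in NPC with auxin, 10 and 2 without. The difference between steps was higher for 3 and lower for 6, against 18.4% and 30.7% of all genes, with a list median of -0.551. Median-of-ratios scaling gave 4 higher and 5 lower, with a median of -0.35. Beyond the untagged line 2 were called higher and 5 lower. Btg1 and Btg2, which restrain proliferation, rose less with auxin, with differences of -1.45 ± 0.19 (Btg1) and -1.16 ± 0.11 (Btg2). Btg2 had 91.6 and 100.4 TPM in NPC with auxin and 24.3, 23.1 and 24.5 TPM in ESC with auxin, against 164, 165 and 170.5 TPM in untreated NPC and 19.4, 16.8 and 19.4 TPM in untreated ESC. The stress-response genes Gadd45a and Gadd45b had higher steps with auxin, by 1.29 ± 0.14 (Gadd45a) and 2.05 ± 0.25 (Gadd45b). Cdkn2a, whose locus is a known Polycomb target and encodes INK4A and ARF, had 167 and 175 TPM in NPC with auxin and 52.9, 50.8 and 53.2 TPM in ESC with auxin, against 125, 139 and 137 TPM in untreated NPC and 51.1, 51.9 and 41.9 TPM in untreated ESC. The NPC groups did not overlap, but the difference between steps was 0.23 ± 0.13 and not called (adjusted p = 0.123), with a 95% interval of -0.02 to 0.49. It was called under median-of-ratios scaling (0.45), under voom (0.44) and without the third untreated ESC library (0.33). Cdkn1a, the p53 target p21, averaged 354 ± 2.94 TPM in NPC with auxin (SD, n = 2) and 352 ± 21.9 TPM in untreated NPC (n = 3). The proliferation list of 26 genes had 4 higher and 17 lower with auxin, 5 and 15 without. Among all genes 21.6% were lower with auxin and 26.6% without. The difference between steps was higher for 11 list members and lower for 7, which became 16 and 2 under median-of-ratios scaling. The summed level of the list in NPC was 5499.6 and 5644 TPM with auxin and 5185 to 5261 TPM without.

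PRC2 subunits moved in both directions. Of 11 tested, 3 were higher and 7 lower in NPC with auxin, 5 and 6 without. With auxin 2 switched on and 1 off, and without auxin 1 switched on and 5 off. The difference was higher for 5 and lower for 3, against 18.4% and 30.7% of all genes. Phf19, an accessory subunit that binds methylated histone, had 30 and 28.5 TPM in NPC with auxin and 5.27, 4.79 and 5.86 TPM in ESC with auxin, against 5.01, 5.66 and 4.74 TPM in untreated NPC and 3.95, 4.29 and 2.9 TPM in untreated ESC. NPC with auxin stood apart from the other 3 groups, with a difference of 1.93 ± 0.24. Ezh2, the catalytic subunit, fell in NPC with auxin (-0.38 ± 0.07) to 119 and 118 TPM, against 158, 153 and 152 TPM in ESC. Without auxin it was 0.21 ± 0.06 higher in NPC, a direction that turned under median-of-ratios scaling and voom.

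At which end of the step the groups differed was read from the auxin contrasts at each stage, which share libraries with the difference and add no support to it. In NPC 9876 genes (55.6%) were called between auxin and untreated, 4388 (24.7%) higher and 5488 (30.9%) lower. In ESC after 12 hours 1242 genes (6.99%) were called, 1163 (6.55%) higher and 79 (0.445%) lower. The median auxin effect over all tested genes was 0.0895 in ESC and -0.0504 in NPC. Median-of-ratios factors were 0.9243 to 0.9486 in ESC with auxin and 0.8467 to 0.8874 in untreated ESC. Counts under that scaling are not given for these contrasts, so the balance between directions in ESC may depend on it. The auxin contrast within untagged ESC was not tested. Among the genes that fell less with auxin the median auxin effect was 1.66 in NPC and 0.0295 in ESC, and among those that rose less it was -0.882 in NPC and 0.2 in ESC. The lists of pluripotency, mesoderm, epithelium and germ line thus moved together in the same 2 NPC libraries, in which the neural lists were low; the part of each in the others was not tested.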

How the data were processed

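Polyadenylated RNA of 47 libraries in 16 groups had been sequenced, and the deposited unit is TPM, which the authors computed per gene symbol and library. Reads had been aligned with STAR 2.6.1d to mm10, per the submitters' processing notes. Sources used here name neither the counting tool nor its annotation and use of strand. Each column summed to 1000000 TPM. TPM steps gave whole reads for 100% of the genes above 0 (tolerance 0.001), and these give the depth, the read numbers and an added voom fit.

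The 17760 genes that reached 1 TPM in 2 or more libraries were tested on log2(TPM + 0.5) with limma 3.58.1 in R 4.3.3 (lmFit, eBayes with trend and robust), all 16 groups in 1 fit. Every adjusted p given is limma's (its voom fit's where voom is named), two-sided, Benjamini-Hochberg over all tested genes, with a threshold of 0.05. A fold change on this scale understates the change of low genes. Errors of log2 differences are standard errors, and those of means are standard deviations. Intervals are 95%. Where a group had no read, a limit of 3 reads over the group, converted to a mean TPM, bounds the fold; it covers counting error only. Only the test of the difference between steps was run on simulated data, not the steps themselves. The simulation used a fixed spread and no difference outside a small seeded set of genes. Data in which many genes differ, as here, were therefore not checked.

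The members and the 20 gene lists were chosen with earlier results of these data known, so lists are described by counts and medians beside all genes. Named genes are the 10 largest rises and 10 largest falls with auxin, the 12 most positive and 12 most negative differences between steps (at least 5 TPM in a group, and NPC or ESC libraries with and without auxin not overlapping), up to 4 called members per list with the smallest p, and a fixed set of regulators; other list members were named after their values were seen. Not all genes that the rule names are given, and some results are not reported here. Coordinates are from GENCODE M21 on GRCm38, with 26704 symbols matched to 1 gene. Replicate numbers did not pair the libraries: correlations of same-numbered deviations were -0.0296 to 0.0406 over 15 pairs by title, and -0.0292 to 0.0407 by library name, where the NPC libraries with auxin carry other numbers. The fits were repeated with a pseudocount of 0.1 or 1, without the filter, with median-of-ratios scaling, the compared groups only, a replicate block, voom, 2-fold and 4-fold thresholds and leaving out each library.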

Additional observations from a re-analysis of the deposited data

Results flagged for a closer look

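Genes whose difference between the auxin and the untreated step was itself different in the SUZ12-AID and the untagged line, by limma's test of that contrast, were called for 2296 genes in the higher and 3458 in the lower direction (3078 and 2569 under median-of-ratios scaling). Among the genes with the largest positive differences, the part beyond the untagged line, in log2(TPM + 0.5), was 6.05 for Tdgf1, 5.80 for Nanog, 5.79 for Tdh, 5.71 for Pou5f1, 5.51 for Dppa5a, 5.15 for Rpl10l, 5.02 for Klf2, 4.89 for Dnmt3l, 4.87 for L1td1, 4.81 for Cldn6, 4.77 for Osr1 and 4.56 for Utf1. Dppa5a and Rpl10l have near-identical copies in the genome, so how reads were shared among the copies is uncertain. Tdh encodes threonine dehydrogenase, on which mouse stem cells rely, and had 76 and 84 TPM in NPC with auxin, against 1.62, 2.48 and 1.12 TPM in untreated NPC.

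Among the largest negative differences, the part beyond the untagged line was -5.25 for Nxph4, -4.89 for Hes5, -4.87 for Scg2, -4.64 for Lrrn1, -4.48 for Adcyap1r1, -4.46 for Nkx6-2, -4.41 for Lfng, -4.37 for each of Lhx4, Tbx20 and Miat, and -4.30 for Grm2. Under voom Miat was not called (-5.02, adjusted p = 0.0903). Adcyap1r1, the receptor of the neuropeptide PACAP, had 3.66 and 3.21 TPM in NPC with auxin, against 74.2, 67.2 and 74.5 TPM in untreated NPC. Grm2, a metabotropic glutamate receptor, had 1.63 and 1.32 TPM in NPC with auxin, on 25 reads in all, against 37.7, 31.2 and 32.1 TPM in untreated NPC.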

How the results depend on the processing

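With a change of at least 2-fold required, calls numbered 3725 higher and 1499 lower for the auxin step, 5476 and 2578 for the untreated step, 1835 and 2159 for their difference, 1500 and 1705 beyond the untagged line, and 0 higher in the untagged line. The untagged difference was called higher for 2 genes under median-of-ratios scaling, with the compared groups only and under voom, and lower for 1 without a filter, 2 with the compared groups only and 2 under voom. Leaving out 1 library gave 1 to 4 higher and 0 to 1 lower there. At 4-fold, 1112 genes were on in both steps, 1857 on less, 302 on more, 402 off in both, 905 off less and 20 off more with auxin; the classes under all other settings were added after seeing the data and stayed within 1.5 times. Leaving out 1 library, differences were called higher for 2841 to 3147 and lower for 4676 to 5360 genes. Median-of-ratios scaling gave 4503 higher and 3839 lower differences, and voom 4647 and 4310. Ezh2 in the untreated step was -0.21 under that scaling and -0.02 under voom, against 0.21; the cause was not tested. With a replicate block by title, calls were 6824 and 3717 (auxin step), 8886 and 4718 (untreated step) and 3181 and 5398 (difference); by library name they were 6922 and 3624, 8886 and 4718, and 3199 and 5239. Over all settings, the differences of named genes kept direction and side of the threshold in 2365 values, lost the call in 11 and gained it in 4; beyond the untagged line, where other settings were also added after seeing the data, 31 lost and 15 gained it against 3643. The median differences of the 20 lists kept their sign under both pseudocounts, no filter, median-of-ratios scaling and the compared groups only, and moved by more than the SD of the list's median between libraries in 41 of these values, against 59 that did not.

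Depth limits what can be said of genes with few reads, such as Wnt1, Tfap2b, Hoxc9, Scg2, Accsl and Obox6, whose fitted differences depend on the pseudocount. NPC with auxin rest on 2 libraries, and without either of them the other is assumed to vary like the remaining groups.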

Other observations

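Some genes fell in both steps but further with auxin, the less common direction, with 24 genes off without auxin having a lower step with it. Foxn4, a forkhead gene of neural progenitors that choose interneuron fates, had 0.651 and 0.952 TPM in NPC with auxin and 34.2, 37.5 and 36.6 TPM in ESC with auxin, against 9.25, 7.6 and 6.58 TPM in untreated NPC and 29.6, 25.2 and 26.5 TPM in untreated ESC. Its difference was -3.08 ± 0.21. Among the genes that changed sign, 46 were off without auxin and on with it, and 8 were on without auxin and off with it; Stmn2 is among the 8. Lamb1, a laminin chain of basement membranes that the rule named from the endoderm list, had 113 and 103 TPM in NPC with auxin and 48.8, 47.3 and 43.7 TPM in ESC with auxin, against 16.2, 17.3 and 17.4 TPM in untreated NPC and 33.7, 30.4 and 31 TPM in untreated ESC. The number of genes at 1 TPM or more was 14728 and 14720 in NPC with auxin and 13526 to 13592 in ESC with auxin, against 14066 to 14089 in untreated NPC and 13071 to 13174 in untreated ESC. Depth was lower with auxin than without at both stages.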
